A study of Homo sapiens with 6 samples.

Results

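Chromosomes 16, 17, 19 and 22 are the most gene-rich human chromosomes, and their compartments were followed in T47D cells, an established estrogen receptor-positive breast cancer line. The regions were the 100 Kb bins of these 4 chromosomes with a score other than 0 in all 6 libraries. They numbered 2415 of the 2822 bins on the 4 chromosomes, and 27898 of 30376 bins had such a score over all 23 chromosomes (22 autosomes and X). Chromosome 16 held 754 of the bins, chromosome 17 held 768, chromosome 19 held 557 and chromosome 22 held 336, and the other 407 bins had no score in at least 1 library.

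Parental T47D cells were kept without hormone for 72 h and collected before E2 (T0) or 1, 4, 16 and 24 h after 100 nM E2 was added (T1, T4, T16 and T24). The sixth condition was a tamoxifen-resistant T47D line (TamR), which the labels call untreated and the paper's methods describe as cultured with tamoxifen. Starvation before collection is stated for the parental cells and not for TamR, so that resistance and culture conditions cannot be told apart. TCC is a Hi-C method in which crosslinked fragments are ligated on a solid surface. The paper's reporting summary mentions replicates, and whether they were pooled for T47D is not stated. The scores come as 1 set per condition, called a library here. No difference between conditions therefore has a replicate check, conditions were not tested against each other, and p-values are left out.

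Chromatin separates into compartment A, which is open, gene-rich and mostly transcribed, and compartment B, which is compact, gene-poor, late replicating and often placed at the nuclear lamina. The deposited score of a bin is the first eigenvector of the matrix of contacts between chromosomes, and a positive score marks A and a negative score marks B. Scores are given here multiplied by 1000. They are scaled within a library, so that signs compare more safely between libraries than sizes do. Over the 2415 bins the scores ran from -8.87 to 17.6 at T0, and their median was 6.51 at T0, 6.81 at T24 and 7.42 in TamR.

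The label of gene-rich held for each of the 4 chromosomes. Protein-coding gene starts per Mb of bins with a score were 26.6 on chromosome 19, 15.2 on chromosome 17, 13.04 on chromosome 22 and 11.0 on chromosome 16, which are ranks 1 to 4 of the 23 chromosomes. The highest value among the other 19 chromosomes was 10.01, and the gene-poor chromosomes 4, 13 and 18 had 3.70 together.

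The sequences just before the starts of 5 genes are given as examples. Each is the 120 bases before the annotated start in GRCh37 (hg19), on the strand of the gene, with CpG dinucleotides in capitals. SLC38A7, an amino acid transporter, is the first gene of the longest B island, and CDH11, a mesenchymal cadherin, lies deep inside that island. AXIN2, a negative regulator of Wnt signalling, leads the longest stretch in A in the parental cells and in B in TamR. ZNF43, a KRAB zinc finger gene, leads the longest such stretch of chromosome 19 in the opposite direction. ERBB2, the receptor amplified in a class of breast cancers, stands for a gene in A.
SLC38A7 (chr16:58718675-58718794, minus strand): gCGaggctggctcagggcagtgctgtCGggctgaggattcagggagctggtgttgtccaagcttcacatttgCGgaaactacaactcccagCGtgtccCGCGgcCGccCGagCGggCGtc
CDH11 (chr16:65160016-65160135, minus strand): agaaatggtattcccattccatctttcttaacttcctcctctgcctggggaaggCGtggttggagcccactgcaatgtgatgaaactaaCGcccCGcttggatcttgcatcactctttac
AXIN2 (chr17:63557767-63557886, minus strand): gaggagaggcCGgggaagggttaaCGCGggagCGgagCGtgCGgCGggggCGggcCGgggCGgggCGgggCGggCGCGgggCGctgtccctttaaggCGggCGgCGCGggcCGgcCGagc
ZNF43 (chr19:22034928-22035047, minus strand): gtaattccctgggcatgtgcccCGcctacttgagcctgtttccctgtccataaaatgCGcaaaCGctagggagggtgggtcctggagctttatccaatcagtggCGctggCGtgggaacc
ERBB2 (chr17:37844047-37844166, plus strand): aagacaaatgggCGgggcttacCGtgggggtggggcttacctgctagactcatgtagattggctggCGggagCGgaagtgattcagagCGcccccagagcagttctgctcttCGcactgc
The windows of SLC38A7 and AXIN2 held 10 and 21 CpG dinucleotides, and that of CDH11 held 3. ZNF43 had 5 and ERBB2 had 6. The windows richest in CpG were thus those of AXIN2, in B in TamR alone, and of SLC38A7, in an island edge bin at -0.83 at T0. These 5 chosen windows do not describe the compartments.

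At T0, 72.2% of the 2415 bins were in A (1743 bins, 95% Wilson interval 70.4 to 73.9%), against 43.7% of the 25483 bins of the other chromosomes (43.1 to 44.3%) and 32.0% on chromosomes 4, 13 and 18. Intervals here cover counting of bins only, and neighbouring bins are not independent, so that they are too narrow. The share in A was 91.7% on chromosome 22, 79.9% on chromosome 19, 76.7% on chromosome 17 and 53.2% on chromosome 16. Those of chromosomes 22, 19 and 17 were the 3 highest of the 23 chromosomes. Chromosome 16 ranked ninth in share in A, and its interval of 49.6 to 56.7% reached below 50%, so the majority in A was slight there.

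Through the E2 course the share in A over the 4 chromosomes stayed between 72.2 and 74.6%, with T1 at 73.3%, T4 at 72.8%, T16 at 73.0% and T24 at 74.6%. It was 78.0% in TamR (76.3 to 79.6%). On the other chromosomes it was 41.1% at T24 and 44.7% in TamR. Chromosome 19 differed most between libraries, with 79.9% at T0 (76.4 to 83.0%), 85.6% at T24 (82.5 to 88.3%) and 91.7% in TamR (89.2 to 93.8%). Chromosome 16 had 53.2% at T0, 56.1% at T24 and 61.0% in TamR (57.5 to 64.4%). The shares stayed between 76.6 and 78.3% on chromosome 17 and between 91.7 and 93.5% on chromosome 22, with intervals that overlapped.

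**Figure D1:**
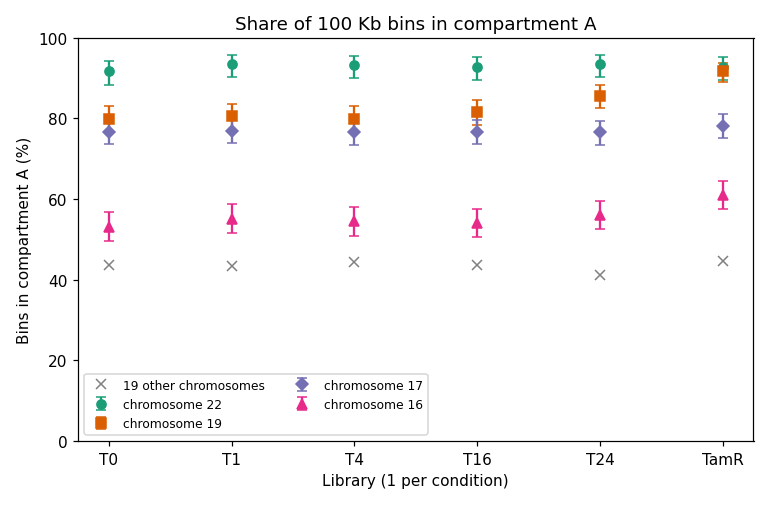
Share of 100 Kb bins in compartment A (%, y axis) in each of the 6 libraries (x axis) for chromosomes 16, 17, 19 and 22, with 95% Wilson intervals as bars, and for the 19 other chromosomes together as crosses. Chromosome 19 stands at 79.9% at T0 and 91.7% in TamR, and chromosome 22 stays between 91.7 and 93.5%.

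The bins of the 4 chromosomes in B in every library lay mostly in long blocks. At T0 taken alone, 672 of the 2415 bins were in B. A constant B island was a run of at least 2 adjacent bins with a negative score in all 6 libraries, ended by any bin without a score. There were 28 of them with 485 bins, or 20.1% of the 2415 bins. In all, 490 bins (20.3%) were in B in every library, against 44.6% of bins over all chromosomes, and 1699 bins (70.4%) were in A in every library, against 38.2%. Island length ran from 200 to 7600 Kb with a median of 1050 Kb, and 15 islands of at least 1 Mb held 436 of the 485 bins.

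Chromosome 16 had 16 islands (274 bins), chromosome 17 had 7 (151 bins), chromosome 19 had 3 (42 bins) and chromosome 22 had 2 (18 bins). Islands thus covered 36.3% of the bins of chromosome 16 and 5.36% of those of chromosome 22. Next to 11 islands lay bins without a score so that those islands may continue unseen. Next to 21 islands lay a bin whose compartment varied among the 6 libraries. A single island, chr16:25200001-27200000, had bins in A in all 6 libraries on both sides, and no island of at most 1000 Kb did.

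Island bins were poor in genes and in CpG. The 485 bins held 90 protein-coding gene starts, or 1.86 per Mb, against 21.5 per Mb in the bins of the same chromosomes in A in all libraries. No gene started in 410 island bins (84.5%), and in 420 of the 1699 A bins (24.7%). The median GC content was 40.7% (quartiles 37.8 and 42.7%) in islands and 48.4% (44.7 and 52.0%) in A bins, with 8.21 and 17.1 CpG dinucleotides per Kb. Constant B bins of the other chromosomes had a median GC content of 37.2% and 2.59 genes per Mb. Islands held 2.85 genes per Mb on chromosome 17, 2.22 on chromosome 22, 1.496 on chromosome 16 and 0.476 on chromosome 19. HindIII, the enzyme named for TCC, had a median of 30 sites per island bin and 20 per A bin, and the part of site density in the scores was not tested.

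The longest island lay on the long arm of chromosome 16 (chr16:58700001-66300000, 76 bins) and held 4 genes. Its mean score was -6.91 at T0, -6.93 at T1, -7.01 at T4, -6.95 at T16, -6.20 at T24 and -6.67 in TamR, so the TamR value lay within the parental range. SLC38A7 and GOT2, a mitochondrial aminotransferase, start in its first bin, which scored -0.83 at T0 and -0.42 in TamR. CDH8, a neuronal cadherin, scored -7.24 at T0 and -2.05 in TamR, and CDH11 scored -7.07 at T0 and -7.10 in TamR. The cadherin genes of this block therefore differed in TamR although they were alike at T0.

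The second island of chromosome 16 (chr16:75700001-80600000, 49 bins, 14 genes) had a mean score of -6.07 at T0, -5.87 at T24 and -5.52 in TamR. It opens with the homeobox genes CPHXL2, DUXB and CPHXL, whose shared bin scored -5.17 at T0 and -1.46 in TamR, and goes on with CNTNAP4, a synaptic adhesion gene, MON1B, SYCE1L and the metalloprotease gene ADAMTS18. WWOX, a tumour suppressor at a common fragile site, starts in a shallow bin with -0.81 at T0, -1.99 at T24 and -2.99 in TamR. MAF, a bZIP transcription factor, scored -5.31 at T0, -6.08 at T24 and -6.78 in TamR, lower in TamR than in any parental library. WWOX and MAF were chosen for mention after their values were seen. The third island (chr16:5200001-8700000, 35 bins) holds the starts of RBFOX1, a neuronal splicing regulator, and TMEM114, and its mean was -7.11 at T0, -5.79 at T24 and -6.30 in TamR.

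On chromosome 17 the longest island (chr17:49800001-54900000, 51 bins) had a mean score of -6.30 at T0, -5.96 at T24 and -4.91 in TamR. Among its first 8 genes, CA10 scored -7.01 at T0 and -3.84 in TamR, and KIF2B, a testis kinesin, scored -8.06 and -8.78. TOM1L1, COX11, STXBP4, HLF, MMD and SMIM36 lay in shallower bins of -4.45 to -0.79 at T0 and -3.71 to -0.14 in TamR. The second island (chr17:10700001-15100000, 44 bins) holds DNAH9, a ciliary dynein, MYOCD, a cofactor of smooth muscle genes, and the kinase gene MAP2K4, among 13 genes. Its mean was -5.58 at T0, -5.08 at T1, -5.61 at T4, -5.67 at T16, -5.14 at T24 and -2.47 in TamR. The TamR value was above each parental value by more than the parental values differed among themselves. The negative sign of its bins was fixed by the definition of an island.

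The third island of chromosome 17 (chr17:66500001-70600000, 41 bins) holds PRKAR1A, a regulatory subunit of protein kinase A, FAM20A, the lipid transporter genes ABCA8, ABCA9, ABCA6, ABCA10 and ABCA5, and MAP2K6. Its mean was -6.24 at T0, -5.82 at T24 and -5.16 in TamR. The ABCA genes differed among themselves, with ABCA5 at -1.39 at T0 and -3.58 in TamR, ABCA10 at -3.22 and -4.61, ABCA9 at -6.64 and -6.72, ABCA6 at -6.47 and -6.34, and ABCA8 at -6.40 and -6.09. MAP2K6 was at -5.06 at T0 and -3.08 in TamR.

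Chromosome 19 had 2 long islands close to each other. The longer (chr19:30700001-32800000, 21 bins) holds the transcription factor genes ZNF536 and TSHZ3, and its mean was -3.57 at T0, -2.99 at T1, -3.29 at T4, -3.30 at T16, -3.65 at T24 and -4.85 in TamR. TamR was thus lower than all parental libraries here, with TSHZ3 at -2.91 at T0 and -5.19 in TamR. The other (chr19:27700001-29500000, 18 bins) holds no gene and had -5.49 at T0, -3.92 at T24 and -3.60 in TamR. The third (chr19:24300001-24600000, 3 bins) lies beside unscored bins and had a mean of 127 HindIII sites per bin. It scored -3.79 at T0, -1.44 at T24 and -5.57 in TamR.

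Chromosome 22 had 2 islands. The longer (chr22:34400001-35600000, 12 bins) holds ISX, an intestinal homeobox gene, and was shallow in the parental cells, with a mean of -2.19 at T0 and of -1.60, -1.62, -1.59 and -1.95 from T1 to T24. In TamR it was -3.75. The other (chr22:16900001-17500000, 6 bins), which borders unscored bins, holds CCT8L2, XKR3 and GAB4 and had -4.90 at T0, -3.20 at T24 and -3.95 in TamR.

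Some islands lay nearer the border in TamR than in any parental library, with a negative sign that the definition of an island fixed. Nearest was chr16:72300001-72500000, without genes, at -6.11 at T0 and -0.26 in TamR. The island of CACNG3 (chr16:24100001-24400000) was next, at -5.24 and -0.74. The skeletal muscle myosin genes MYH13, MYH8, MYH4, MYH1 and MYH2 form an island of 3 bins (chr17:10200001-10500000) with a mean of -6.63 at T0, -5.34 at T1, -6.29 at T4, -6.25 at T16, -5.45 at T24 and -0.77 in TamR. CDH13, which encodes T-cadherin, is the single gene of an island of 13 bins (chr16:82400001-83700000) with a mean of -6.92 at T0, -6.09 at T24 and -2.47 in TamR. ZFHX3, a zinc finger homeobox gene, is the single gene of an island of 10 bins (chr16:73300001-74300000) with -7.00 at T0, -5.75 at T24 and -2.56 in TamR. This last island was chosen after its values were seen.

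Over the 28 islands the TamR mean was above the range of the 5 parental means in 15, below it in 4 and within it in 9. Over single bins of either compartment, TamR scored above all parental libraries in 35.1% of the 2415 bins (35% over all chromosomes) and below them in 38.0% (43.6%). Island means are another unit and most single bins were in A. These shares are therefore no background for the island counts, and no share for B bins alone was taken. T24 was the highest of the 5 parental libraries in 22 islands. Bin by bin it was the highest in 65.5% of the 490 bins in B throughout and in 46.6% of the 1699 bins in A throughout, against 37.7 and 20.6% on the other chromosomes. The mean difference of T24 from T0 over all bins of a chromosome, islands included, was 1.25 on chromosome 19, 0.69 on chromosome 16, 0.58 on chromosome 22 and 0.44 on chromosome 17.

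**Figure D2:**
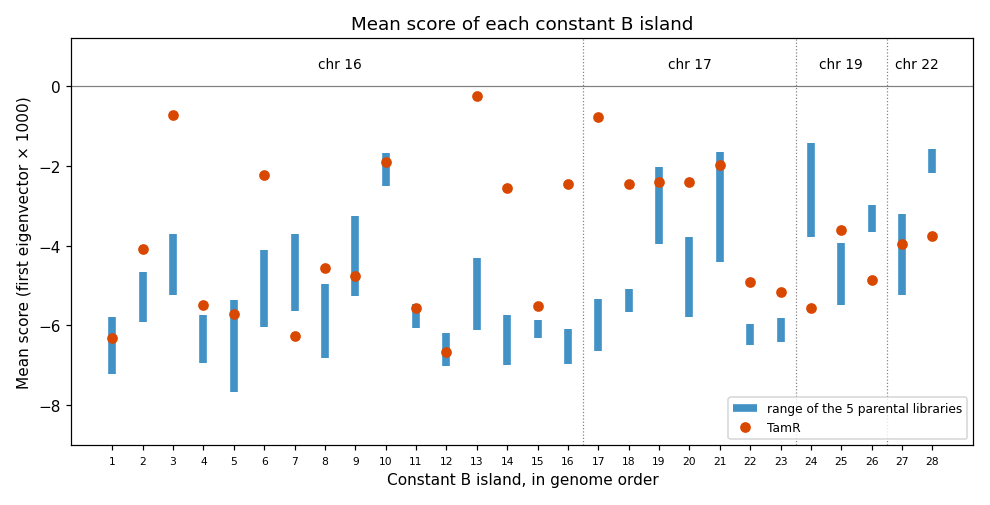
Mean score (first eigenvector × 1000, y axis) of the 28 constant B islands in genome order (x axis), with the range of the 5 parental libraries as bars and TamR as points. TamR lies above the bar in 15 islands, below it in 4 and within it in 9, and stays below 0 throughout because the islands were defined by a negative score in all libraries.

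Islands defined with TamR cannot show which islands are in A in TamR. With the 5 parental libraries alone, 37 islands with 581 bins were found. In TamR, 8 of them were wholly in A, 11 partly and 18 wholly in B, and 94 of the 581 bins were in A. Of all bins in B in the 5 parental libraries, single bins included, 98 of 588 (16.7%) were in A in TamR on the 4 chromosomes and 11.9% on the other chromosomes. On chromosome 19, 35 of 78 such bins were in A in TamR and 4 of 8 islands wholly so. On chromosome 16 it was 35 of 310 bins, on chromosome 17 24 of 175 and on chromosome 22 0 of 18.

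Scores climbed over a few bins at the island edges. Across 55 edges with scored bins, the mean score at T0 was -3.96 in the second bin inside, -2.48 in the last bin inside, 0.29 in the first bin outside and 1.88 in the second. At T24 these were -2.65, -1.42, 0.91 and 2.18. In TamR they were 0.14, 1.17, 2.82 and 3.49, while the tenth bin inside was at -3.98 against -6.00 at T0. At that depth 31 bins entered, as shorter islands do not reach it, so the depths cover different sets of islands. TamR medians were lower than the means inside, at -0.87 and 0.33 in the last 2 bins. In the first and second bin outside the medians were 0.36 and 1.84 at T0 and 2.55 and 2.52 in TamR, and in the third they were 2.71 and 2.73. The sign of the parental bins inside was fixed by the choice of islands.

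**Figure D3:**
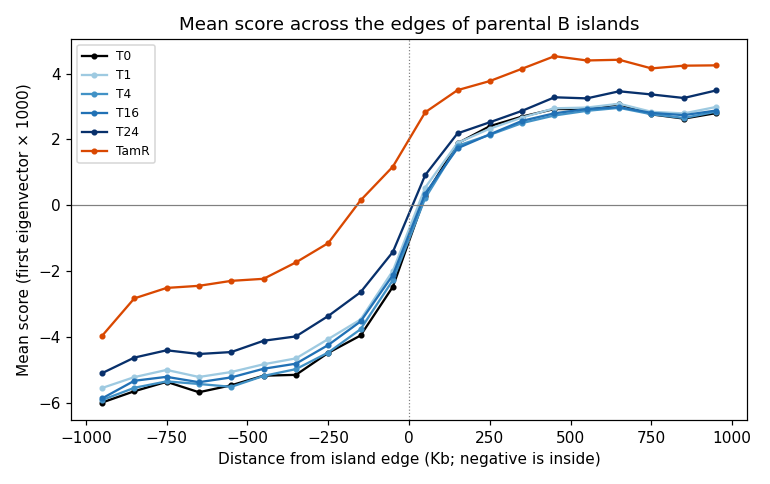
Mean score (first eigenvector × 1000, y axis) by distance from the edge of the 37 B islands of the parental libraries (x axis, Kb, negative values inside), 1 line per library. The TamR line of means lies above the parental lines on both sides of the edge, at 1.17 in the last bin inside against -2.48 at T0. The islands were chosen for negative parental scores, and TamR took no part in the choice. Medians differed less in the third bin outside (2.71 at T0, 2.73 in TamR) than in the first (0.36 and 2.55). Shorter islands do not reach the deeper bins.

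During the E2 course few bins were in another compartment than at T0. Against T0, 39 bins (1.61%) differed in T1, 34 (1.41%) in T4, 49 (2.03%) in T16 and 87 (3.60%) in T24. Over all chromosomes the shares were 3.16, 3.05, 3.8 and 5.17%, so that each pooled share was lower on the 4 chromosomes. The chromosomes differed at T24, however, with 5.57% of bins on chromosome 16 and 5.75% on chromosome 19, and 0.911% on chromosome 17 and 1.79% on chromosome 22. The direction at T24 also differed. There, 73 bins (3.02%, against 1.51% over all chromosomes) were in B at T0 and in A at T24, and 14 (0.580%, against 3.67%) the other way. Relative to their starting compartment, 10.9% of the B bins were in A at T24 (2.42% on the other chromosomes) and 0.803% of the A bins were in B (9.06%).

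Bins that left their T0 compartment at all 4 E2 time points numbered 23 (0.952%, 1.41% over all chromosomes). All of them lay near the border at T0. The 5 that were in A at T0 and in B after E2 (0.785% over all chromosomes, 0.207% here) were single bins with T0 scores of 0.12 to 0.39. The bin at chr16:75600001-75700000 holds GABARAPL2, an autophagy gene, ADAT1, TERF2IP and KARS1, and scored 0.35, -0.53, -0.81, -1.39 and -1.19 from T0 to T24. That at chr17:15100001-15200000 holds PMP22, a myelin gene, and ran from 0.12 at T0 to -1.34 at T24. That at chr16:82000001-82100000 holds SDR42E1 and HSD17B2, which oxidises estradiol to estrone, and scored 0.26 at T0, -0.59 at T24 and 3.13 in TamR. The first and second of these bins border constant B islands.

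The 18 bins in B at T0 and in A after E2 (0.745%, against 0.624%) formed 16 runs with T0 scores of -1.09 to -0.03. In TamR 17 of the 18 bins were in A. They were chosen for being in A in the 4 E2 libraries, and the TamR share of such bins elsewhere was not taken. The TamR count therefore has no background. The 2 bins at chr16:17100001-17300000 hold no gene and scored -0.41, 0.90, 1.04, 2.05 and 2.86 on average from T0 to T24. Those at chr16:71200001-71400000, with HYDIN, a ciliary gene, CMTR2 and CALB2, scored -0.57 at T0, 0.52 at T24 and 5.13 in TamR. The bin at chr17:3200001-3300000 holds the olfactory receptor genes OR3A1, OR1R1P and OR3A2 and scored -1.09, 1.73, 0.90, 2.26, 4.24 and 7.53 from T0 to TamR. Another 82 bins (3.40%, against 5.7%) left their T0 compartment in 1 to 3 of the E2 libraries. In 42 of the 56 that differed in a single library, that library was T24. Over all chromosomes it was T24 in 559 of 849 such bins, so this is not particular to the 4 chromosomes.

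The longest stretches in B at T0 and in A at T24, looked for after the T24 counts were seen, lay on chromosomes 19 and 16. Of the 6 longest, 4 were on chromosome 19, and on chromosome 16 lay 6 bins with CPPED1 and SHISA9 (chr16:12500001-13100000, -1.05 at T0, 0.42 at T24 and 4.41 in TamR) and 4 bins without genes (chr16:17800001-18200000, -3.15, 0.18 and 0.69). At chr19:21100001-22000000 (9 bins), with ZNF85, ZNF430, ZNF714 and 7 other genes, the mean was -0.77 at T0, -0.69 at T1, -0.88 at T4, -0.84 at T16, 1.52 at T24 and 5.56 in TamR. The scores up to T16 thus lay close together, and T24 alone among the parental libraries was positive. At chr19:8700001-9100000 (4 bins), with NFILZ, ACTL9, OR2Z1, ZNF558 and MBD3L1, the mean was -1.21, 0.09, -0.62, 1.40, 3.10 and 8.02 in the same order, and T16 was already positive.

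TamR differed from T0 in 203 bins (8.41%, interval 7.36 to 9.58%), against 13.9% over all chromosomes. Of these, 172 (7.12%, against 7.67%) were in B at T0 and in A in TamR, and 31 (1.28%, against 6.27%) the other way. Of the bins in B at T0, 25.6% were in A in TamR, against 13.7% on the other chromosomes. Of those in A at T0, 1.78% were in B in TamR, against 15.4%. The first share was highest on chromosome 19, where 67 of 112 T0 B bins were in A in TamR (59.8%), and that was also the highest of the 23 chromosomes. The range over the 19 other chromosomes was 3.85 to 27.6%.

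By chromosome, 79 bins (10.5%) differed on chromosome 16, 44 (5.73%) on chromosome 17, 68 (12.2%) on chromosome 19 and 12 (3.57%) on chromosome 22. The correlation of TamR with T0 over bins was 0.952 on chromosome 16 (n = 754), 0.941 on chromosome 17 (n = 768), 0.802 on chromosome 19 (n = 557) and 0.931 on chromosome 22 (n = 336), where neighbouring bins share contacts and base composition. Over the 2415 bins it was 0.920, and T1, T4, T16 and T24 had 0.995, 0.995, 0.993 and 0.988.

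**Figure D4:**
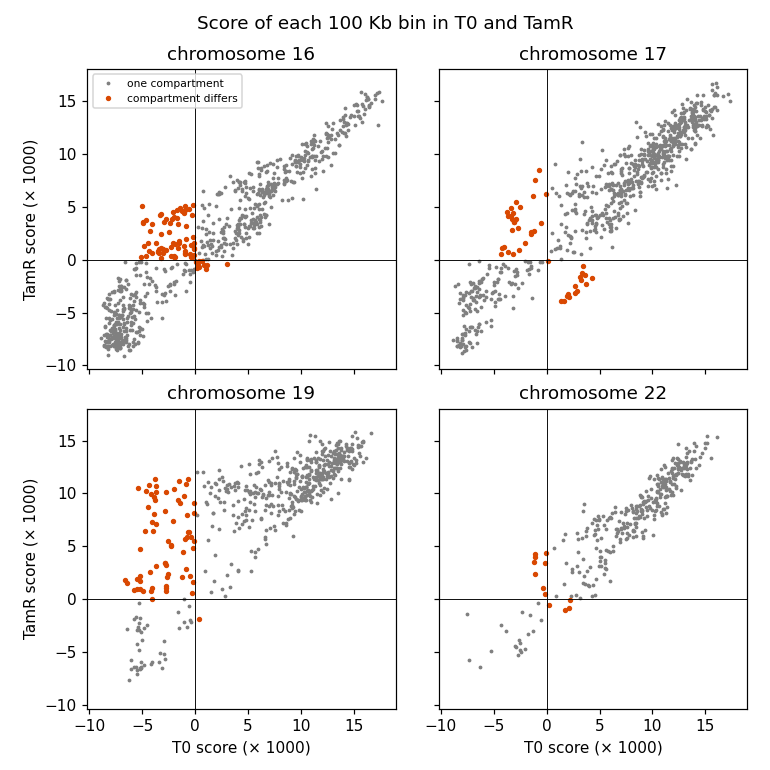
Score of each 100 Kb bin at T0 (x axis) and in TamR (y axis), both first eigenvector × 1000, for chromosomes 16, 17, 19 and 22, with bins whose compartment differs in orange. On chromosome 19, 67 of the 68 differing bins lie at upper left, in B at T0 and in A in TamR.

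Fewer bins set TamR apart from every parental library. In A in the parental cells and in B in TamR were 23 bins (0.952%, against 3.94%), in 7 runs. The longest lay on chromosome 17 (chr17:63200001-64700000, 15 bins), between bins in A in all libraries, and held AXIN2, a gene without a symbol, CEP112, a centrosomal gene, APOH, apolipoprotein H, and PRKCA, protein kinase C alpha. Its mean was 2.80 at T0, 3.43 at T1, 3.34 at T4, 3.31 at T16, 2.50 at T24 and -2.49 in TamR. The bin of AXIN2 scored 3.72 at T0 and -2.27 in TamR, and that of APOH and PRKCA scored 4.24 and -1.73. The start of AXIN2 is the CpG-rich window shown above, and a relation of such windows to the score was not tested.

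The next runs in this direction were 2 bins each, without genes, at chr22:34000001-34200000 (1.94 at T0 and -0.92 in TamR) and chr22:33700001-33900000 (1.21 and -0.31), just before the ISX island. On chromosome 16 the longest was a single bin (chr16:53300001-53400000, 3.01 and -0.36), and chromosome 19 had none.

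In B in the parental cells and in A in TamR were 98 bins (4.06%, against 6.13%), in 28 runs with 59 genes, and 5 runs of at least 5 bins held 50 of them. The longest lay on chromosome 17 (chr17:31300001-32700000, 14 bins) and held ASIC2, an acid-sensing ion channel gene, and the chemokine genes CCL2, CCL7, CCL11, CCL8, CCL13 and CCL1, which attract monocytes, eosinophils and T cells. Its mean was -2.76 at T0, -1.91 at T1, -2.05 at T4, -1.68 at T16, -1.93 at T24 and 4.59 in TamR. The bin shared by ASIC2, CCL2 and CCL7 lay near the border in the parental cells, at -0.77 at T0 and -0.02 at T16, and scored 8.49 in TamR.

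On chromosome 19 the run at chr19:22000001-23300000 (13 bins) holds ZNF43, ZNF208, ZNF257, ZNF676, ZNF729, ZNF98, ZNF492, ZNF99 and 3 other zinc finger genes. Its mean was -5.00 at T0, -4.71 at T1, -5.21 at T4, -4.48 at T16, -1.93 at T24 and 1.40 in TamR. That at chr19:56800001-57700000 (9 bins, 15 genes) holds ZSCAN5A, ZNF582, ZNF583, ZNF667, ZNF471, ZFP28, ZNF470 and ZNF71, and the imprinted gene PEG3. Its mean was -4.07 at T0, -3.46 at T16, -1.78 at T24 and 9.84 in TamR, which is close to the median of 9.70 over bins in A in all libraries. On chromosome 16 the longest run (chr16:13100001-14000000, 9 bins) holds no gene and had -3.68 at T0, -1.68 at T24 and 4.00 in TamR, and chromosome 22 had none.

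Chromosome 19 carries large clusters of KRAB zinc finger genes, whose products mostly repress transposable elements and whose bodies are often covered by heterochromatin marks. Of its 249 ZNF genes, 201 (80.7%) started in A bins at T0, 205 at T1, 199 at T4, 212 at T16, 227 (91.2%) at T24 and 246 (98.8%) in TamR. Of the other 1230 genes, 1198 (97.4%) did at T0 and 1229 (99.9%) in TamR. The median score at the start was 4.36 at T0, 4.92 at T24 and 10.3 in TamR for ZNF genes, and 11.5, 12.5 and 11.8 for the others. These genes share bins, so that their number exceeds the number of separate measurements.

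Among bins with a score in all 6 libraries, chromosome 19 had 9 B compartments of at least 2 bins at T0, with 80 genes. ZNF genes were 48 of these, and 5 of the 9 compartments were wholly in A in TamR. A bin without a score in at least 1 library ended a compartment. Counted over every bin with a T0 score, there were 8, the longest of 4300 Kb. It joins chr19:19900001-20500000 (6 bins, all in A in TamR) to the largest below, so that block was not wholly in A. The 9 compartments were selected on their T0 scores. The largest (chr19:20600001-24200000, 36 bins, 28 ZNF genes) had a mean of -2.98 at T0, -2.74 at T1, -3.20 at T4, -2.55 at T16, -0.10 at T24 and 2.95 in TamR, with 17 bins in A at T24 and 34 in TamR. A cluster of NLRP genes (chr19:56200001-56600000, 4 bins), which act in innate immunity and in the oocyte, had -3.09 at T0, -0.12 at T24 and 10.2 in TamR. It was chosen after its values were seen. The compartment of 3 bins without genes and that around ZNF536 and TSHZ3 stayed in B, with -5.57 and -4.66 in TamR. Over the 4 chromosomes, 44 such T0 compartments with 661 bins were counted, of which 5 were wholly in A at T24 and 15 in TamR. Such compartments were not counted on the other chromosomes, so these counts have no background. By single bins in B at T0, 10.9% were in A at T24 and 25.6% in TamR, against 2.42 and 13.7% on the other chromosomes.

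**Figure D5:**
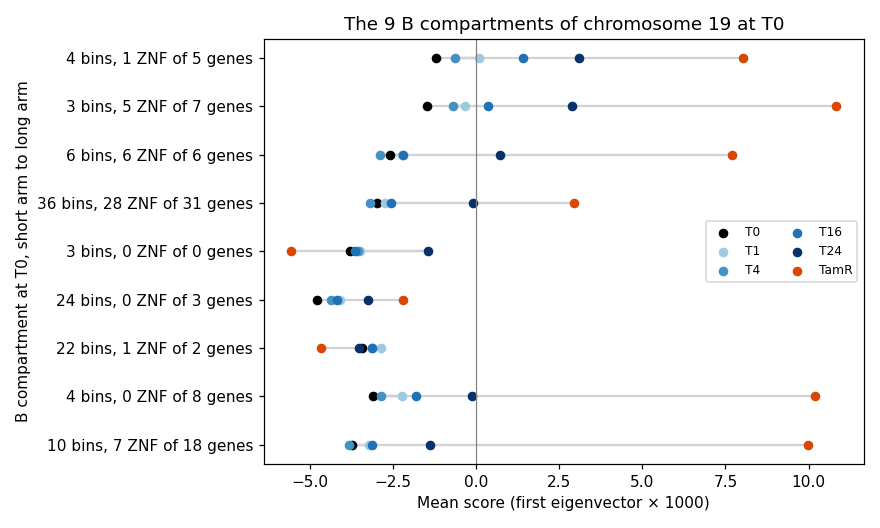
Mean score (first eigenvector × 1000, x axis) of the 9 compartments of at least 2 bins in B at T0 on chromosome 19 (y axis, in genome order, named by their number of bins and genes), 1 point per library. TamR lies above 0 in 6 of the 9, the highest at 10.8, and below all parental libraries in 2. A bin without a score in at least 1 library ended a compartment.

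Of 60 breast cancer and estrogen receptor genes on these chromosomes, 58 were in A in all 6 libraries, where 3658 of 3917 protein-coding genes with a score were. The highest was TSC2, a brake on mTOR signalling, at 17.65 at T0 and 14.99 in TamR, and ERBB2 was at 16.1 and 16.4. CDH13, the lowest, and MAP2K4 were in B in all libraries, at -7.10 and -0.47 at T0 and -1.83 and -0.22 in TamR. MAP2K4 thus lay near the border and CDH13 did not at T0.

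Of 8 cadherin genes of chromosome 16, 5 were in A in all libraries, with CDH15 highest at 15.4 at T0, and CDH8, CDH11 and CDH13 were in B in all. In A in all libraries were 89.2% of the scored genes of chromosome 16 and 93.4% of those of the 4 chromosomes. In B in all were 4.94 and 2.30%. CDH1, E-cadherin, scored 11.6 at T0 and 10.7 in TamR. Of 10 myosin heavy chain genes, 4 were in A in all libraries, with MYH9, the non-muscle form, highest at 11.7. The 5 of the muscle island were in B in all, with MYH8 lowest at -7.38 at T0 and -0.36 in TamR. MYH3, the embryonic form, was at -3.23 at T0 and 0.50 in TamR.

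Among all 3917 scored genes of the 4 chromosomes, 93.4% were in A in all libraries and 2.30% in B in all. A further 1.51% were in B in the parental cells and in A in TamR, and 2.68% varied. Of 22 CCL chemokine genes, 12 were in A in all libraries, 6 were in B in the parental cells and in A in TamR, and 4 had no score. These 6 share the neighbouring bins chr17:32500001-32600000 and chr17:32600001-32700000, so they are not separate measurements. CCL25 was highest at 10.6 and CCL11 lowest at -1.30 at T0, with 6.06 in TamR. Of 295 ZNF genes on the 4 chromosomes, 240 were in A and 2 (ZNF18 and ZNF536) in B in all libraries, 22 were in A in TamR alone, and 31 varied. ZNF729 was lowest at -6.67 and ZNF598 highest at 17.6 at T0. Of 37 olfactory receptor genes, 26 were in A in all, 9 varied and 2 had no score, from OR2Z1 at -2.27 to OR1F1 at 12.9. Of 5 carboxylesterase genes, 3 were in A in all, CES1 varied, and CES5A, the lowest, was at -2.14 at T0 and 3.88 in TamR, with CES2 highest at 11.4.

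Every scored member of the remaining lists was in A in all 6 libraries, as were 93.4% of all scored genes of the 4 chromosomes. Genes of a list often share bins, with the 10 HOXB genes in 3 bins and the 15 kallikrein genes in 3. The lists differed in level. Scores at T0 were high over 28 keratin genes (11.0 for KRT25 to 14.1 for KRT9), 34 keratin-associated protein genes (10.01 for KRTAP9-4 to 11.2 for KRTAP3-3), 10 HOXB genes (10.2 for HOXB7 to 11.6 for HOXB13) and 5 alpha globin genes (15.4 for HBM to 16.3 for HBZ). The same holds for 7 APOBEC3 genes (11.3 for APOBEC3C to 14.0 for APOBEC3A), and the 5 growth hormone cluster genes share 1 bin at 11.7. Scores reached lower for 6 APOL genes (6.71 for APOL5 to 11.1 for APOL4), 14 CYP2 and CYP4F genes (7.16 for CYP2A6 to 13.3 for CYP2D6), 15 kallikrein genes (6.69 for KLK4 to 8.80 for KLK1) and 10 scored galectin genes (1.94 for LGALS9 to 13.7 for LGALS2).

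Lower levels were found for 9 metallothionein genes (5.94 for MT1G to 6.11 for MT2A), 3 Iroquois genes (4.04 for IRX6 to 6.59 for IRX5) and 6 Schlafen genes (2.72 for SLFN11 to 3.70 for SLFN5). The immune and placental families of chromosome 19 spanned more than 4 units at T0. PSG6, a pregnancy-specific glycoprotein gene, was lowest of 22 CEACAM and PSG genes at 1.00 at T0, with 3.34 at T24 and 9.23 in TamR, and CEACAM3 was highest at 11.5. KIR3DL3, a natural killer cell receptor gene, was lowest of 17 LILR and KIR genes at 1.37 at T0, with 2.44 at T24 and 10.1 in TamR, and LILRA5 was highest at 5.78. SIGLEC12 was lowest of 10 SIGLEC genes at 3.65 at T0 and 10.7 in TamR, and SIGLEC11 was highest at 14.1. The median of these 3 families was 3.72, 2.70 and 5.48 at T0 and 8.68, 11.0 and 10.2 in TamR.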

How the data were processed

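For each T47D condition the authors deposited 1 TCC score per 100 Kb bin, in a single file. According to the study's methods, bowtie2 was used for iterative alignment of the reads to hg19, contacts were corrected with HiCLib, contacts within chromosomes were removed, and the first eigenvector was taken. Depth is unknown, as the files hold no contact counts, and whether replicate cultures were pooled is not stated. A score of 0 was taken as no score.

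Signs were kept as they were deposited. The last bin of each of the 23 chromosomes ends at the GRCh37 chromosome length. GC content, CpG and HindIII sites came from GRCh37, and gene starts from GENCODE release 44 mapped to it (20176 protein-coding genes). Python 3.11.15, numpy 2.4.6, pandas 2.3.3, scipy 1.17.1 and matplotlib 3.10.9 were used, and run finding and trends were tested on simulated data. Alternatives were a border at the library median, weak bins left out, 500 Kb bins, another parental reference, each E2 library left out and other island definitions.

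Regions named were the 3 longest constant B islands per chromosome, small islands enclosed by A (none was found), the 3 longest runs per direction and the longest per chromosome that differed in TamR, and up to 3 runs flipped by E2 per direction. Up to 8 genes per region were named, and for each gene list its lowest and highest member at T0 and, for the breast cancer list, members not in A throughout. Members and lists were chosen with earlier results of these data known. Sequences were shown for the first gene of the longest island and of the longest run in each direction in TamR, and for ERBB2, and that of the longest run from B to A is not reported here. The CDH11 and ZNF43 sequences and the T24 stretches were chosen after values were seen.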

Additional observations from a re-analysis of the deposited data

Results flagged for a closer look

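The share of bins in A was compared among the 6 libraries for each of the 4 chromosomes and for all 4 together, and the highest or lowest library was marked where its gap to the next exceeded Dixon's 95% critical share of the whole range for 6 values. The libraries are different conditions and not replicates, and chance marks about 1 in 20 groups of this size. TamR stood apart on chromosome 16 with 61.0% of bins in A, the nearest library being T24 with 56.1%, and on chromosome 17 with 78.3%, the nearest being T1 with 77.0%. On chromosome 22, T0 stood apart at the low end with 91.7%, the nearest being TamR with 92.9%.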

How the results depend on the processing

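No paired analysis was possible because there is a single library for each condition. Of 50 recomputed values, 38 stayed within 1.5 times a count or within the interval of a share, and 12 did not. With the border at each library's median, 73.95% of bins were in A at T0 and 0.621% flipped at all E2 time points. Leaving out weak bins, whose absolute score fell below the 10th percentile of at least 1 library, kept 2176 bins, of which 76.8% were in A at T0. TamR then differed from T0 in 3.49%, with 0.643% from A to B and 2.85% from B to A. T24 differed in 0.230%, 0% were flipped and 0.230% differed at some time points, so that the E2 differences rest on bins near the border. This filter also removes any bin that a change brought close to 0 in 1 library. In 500 Kb bins, T24 differed from T0 in 4.57%. Without the T24 library the share that differed at some time points was 1.61%, against 3.40%. Islands of the parental libraries alone covered 24.1% of bins. The number of islands ran from 21 to 37 over the definitions tried, and leaving out the T0 or T24 library, added after seeing the data, gave 28 and 29. With unknown depth, no error of a single score could be given.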

Other observations

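The 4 chromosomes held many of the highest scores of the genome. Of the 100 highest-scoring bins, 55 lay on them at T0, 54 at T1, 56 at T4, 55 at T16, 51 at T24 and 56 in TamR, although they hold 2415 of 27898 bins. By chromosome, the count on chromosome 16 was 24 at T0, 29 at T24 and 15 in TamR, and that on chromosome 19 was 10, 5 and 17. The highest bin at T0 was chr16:2000001-2100000, at 17.6, which holds 14 gene starts from RPL3L to TSC2. Of the 100 lowest-scoring bins, between 0 and 3 lay on the 4 chromosomes in any library.

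Counted over every bin with a score in the library concerned, also those outside the 2415 bins, and with single bins included, adjacent bins of one compartment formed 121 compartments on the 4 chromosomes at T0 (65 in A and 56 in B), 102 at T1, 106 at T4, 109 at T16, 101 at T24 and 97 in TamR (57 and 40).

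The difference of TamR from T0 had a correlation with GC content over bins of -0.263 (n = 2415), and of 0.016 on the other chromosomes (n = 25483). On chromosome 19 it was -0.420 (n = 557). For the difference of T24 from T0 the values were 0.163, 0.135 and -0.049. Bins share contacts and neighbours share base composition, so these are descriptions. On chromosome 19 the 112 bins in B at T0 had a median GC content of 42.4% and median scores of -3.77 at T0, -1.54 at T24 and 1.41 in TamR. The 445 bins in A at T0 had 50.9% and 10.4, 11.5 and 11.4.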
